A study of Mus musculus with 2 samples.

Results

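The miR-26 and miR-101 families were followed in mouse bone marrow cultures grown with or without the cytokine IL-6. Members were taken by name alone: every measured name starting miR-26a, miR-26b, miR-101a or miR-101b, which gave 9 of the 1080 miRNA names on the array. Of the 9, 5 were detected in both cultures (mmu-miR-26a-5p, mmu-miR-26b-5p, mmu-miR-101a-3p, mmu-miR-101a-5p and mmu-miR-101b-3p, given below without the mouse prefix). The other 4 (miR-26a-1-3p, miR-26a-2-3p, miR-26b-3p and miR-101b-5p) were detected in neither. Of all 1080 names, 292 or 27% were detected in both cultures, while 70.6% were detected in neither. The names include viral miRNAs (prefixes mcmv and mghv), some of them detected in both cultures. The name mghv-miR-M1-2-5p had summed signals of 293 with IL-6 and 260 without, above those of miR-26b-5p (127 and 143). The 27% is thus not a share of mouse names alone, and whether a detection reflects specific expression was not tested. A name counted as detected when at least 1 of its probes had a total signal above 3 times its deposited error, which matched the scanner software's own flag for all 1080 names on each array.

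A miRNA pairs through its seed, the bases from position 2 to position 8, with sites in the untranslated tail of messenger RNAs and lowers their translation or stability. Both families are known for sites in the messenger RNA of EZH2, the catalytic subunit of Polycomb repressive complex PRC2, which places repressive methyl marks on histones. In human cancers, loss of miR-101 in prostate tumours and repression of miR-26a by MYC in lymphoma have been tied to raised EZH2. Neither Ezh2 RNA nor EZH2 protein was measured here, so the label EZH2-targeting is background and could not be checked against these data.

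The cells were marrow cells of C57BL/6 mice, of unstated age and number, kept for 4 days in medium with 5% serum. One culture received GM-CSF at 40 ng/ml, a cytokine that drives growth of myeloid precursors. The other received 40 ng/ml GM-CSF and 40 ng/ml IL-6, so GM-CSF was common to both. The labels call the product myeloid-derived suppressor cells, immature myeloid cells that restrain T cells. No sorting step is given in the sources used here, and a culture may hold several cell types.

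Each culture was measured on 1 single-colour Agilent miRNA array, so no difference below has a replicate check and none carries a p-value. Each of the 9 names was measured on 40 spots per array, and 0 spots were saturated. The number of arrays limits the precision. Of the myeloid markers, miR-223-3p (6239 with IL-6 and 6807 without), miR-142-3p (1398 and 1460) and miR-142-5p (263 and 268) were bright, while miR-223-5p and both arms of miR-511 were undetected. All 5 stromal markers were undetected. Of the erythroid markers miR-451 had a signal of 8.10 with IL-6 and 10.4 without, and both arms of miR-144 were undetected. Of 3 lymphoid markers, miR-150-5p had 54.2 and 62.6, miR-181a-5p 28.3 and 31.3, and miR-150-3p was undetected. Of 4 epithelial markers, miR-200c-3p had 12.4 and 14.99 and miR-141-3p 8.51 and 7.80, and neither miR-200a-3p nor miR-200b-3p was detected on both arrays. The muscle marker miR-206-3p had 67.8 and 55.5, and miR-133a-3p was undetected. Their part in the results below was not tested. In such bulk RNA, fewer cells of a type and less of a miRNA per cell cannot be told apart.

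The mature sequences show what the detected members share. They are RefSeq sequences (GRCm38.p6), with the seed in capitals, and all 9 names had an entry. The erythroid miR-144-3p is added as the single other name on the array that shares bases 2 to 7 with a detected member of the miR-101 family.
miR-26a-5p: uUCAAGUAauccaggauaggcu
miR-26b-5p: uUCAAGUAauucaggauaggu
miR-101a-3p: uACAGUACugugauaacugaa
miR-101b-3p: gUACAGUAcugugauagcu
miR-101a-5p: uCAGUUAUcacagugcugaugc
miR-144-3p: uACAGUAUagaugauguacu

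The miR-26 pair has 1 seed, UCAAGUA. Counted from position 1 at the 5′ end of miR-26a-5p, the pair matched at 19 of 21 aligned bases, with the substitutions C11U and C21U. The miR-101 pair is offset: miR-101b-3p is annotated with 1 more base at its 5′ end. Its bases 2 to 8 are therefore UACAGUA, whereas those of miR-101a-3p are ACAGUAC. With that base skipped, 17 of 18 aligned bases were identical and the difference was A16G, counted along miR-101a-3p. The other arm of the miR-101a hairpin, miR-101a-5p, has the unrelated seed CAGUUAU. No sequence of the array's probes was used here, and signal shared between such close sequences was not tested.

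The loci lie apart in the genome, so the families are not products of 1 cluster. All positions are on GRCm38.p6. Mature miR-26a-5p is encoded at chr9:119031811-119031832 (Mir26a-1, within the span of Ctdspl) and at chr10:126995543-126995564 (Mir26a-2, within Ctdsp2), both on the plus strand, and the array cannot tell these copies apart. Mir26b gives miR-26b-5p from chr1:74394324-74394344, plus strand, within Ctdsp1. The 3 Ctdsp genes encode phosphatases that act on the tail of RNA polymerase II. Mir101a lies on the minus strand, with miR-101a-3p at chr4:101346957-101346977 within the long noncoding gene E130102H24Rik, and Mir101b on the plus strand, with miR-101b-3p at chr19:29135338-29135356 within Rcl1. Whether these positions are exonic or intronic was not examined. The hairpins of Mir26b and Mir101a, with both mature arms in capitals, show the difference between a hairpin detected on its 5′ arm alone and one detected on both arms.
Mir26b: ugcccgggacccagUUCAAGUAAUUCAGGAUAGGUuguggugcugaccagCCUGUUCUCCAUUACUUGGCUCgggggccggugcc
Mir101a: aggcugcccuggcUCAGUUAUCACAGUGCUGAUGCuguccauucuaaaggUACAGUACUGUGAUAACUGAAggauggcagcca

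The 5p arms of miR-26 were the bright members. The summed signal of miR-26a-5p, in arbitrary intensity units, was 322 ± 24.0 (deposited error of the probe totals, 1 array) with IL-6 and 372 ± 27.6 with GM-CSF only. That of miR-26b-5p was 127 ± 9.67 with IL-6 and 143 ± 10.8 without. Both names were lower in the IL-6 culture before any scaling, with log2 ratios of -0.21 and -0.18. The IL-6 array was also dimmer at its 75th percentile over the names detected on both arrays, 160.1 against 181.8. The unscaled median log2 ratio of those 292 names was -0.06. The unscaled differences are not corrected for this. All 40 spots of each name lay well above background on both arrays.

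The miR-101 members were dim. For miR-101a-3p, the guide arm usually cited for EZH2, the summed signal was 18.3 ± 2.70 with IL-6 and 22.0 ± 2.83 without. On its partner arm, miR-101a-5p, it was 14.7 ± 1.82 and 12.1 ± 1.77. For miR-101b-3p it was 14.1 ± 2.61 and 14.1 ± 2.61. The unscaled signal, not corrected for array brightness, was thus lower with IL-6 for miR-101a-3p, higher for miR-101a-5p and level for miR-101b-3p. Fewer spots stood clear of background here: 25 and 36 of 40 for miR-101a-3p, 9 and 5 for miR-101a-5p, and 20 and 17 for miR-101b-3p, with IL-6 and without it.

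By signal, miR-26a-5p came first, then miR-26b-5p, then miR-101a-3p on both arrays. The other two changed places between the arrays, and their signals did not differ beyond the deposited errors on either array. Brightness depends on the probes as well as on the amount of a miRNA, so this is an order of signal and not of amount.

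The 4 undetected names were at background. With IL-6 the summed signals were -1.64 ± 2.35 for miR-26a-1-3p, 1.1 ± 2.36 for miR-26a-2-3p, 0.66 ± 1.67 for miR-26b-3p and -2.38 ± 2.35 for miR-101b-5p. With GM-CSF only they were -0.89 ± 2.35, 1.91 ± 2.36, 0.57 ± 1.66 and -1.73 ± 2.35 in the same order. Each had 0 of its 40 spots well above background, with IL-6 or without, and no ratio is given. Thus Mir26b and Mir101b were detected on 1 arm and Mir101a on both, while miR-26a-5p could come from either Mir26a hairpin. The seed relative miR-144-3p was likewise at background, with -1.23 ± 2.35 and -1.31 ± 2.35.

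**Figure D1:**
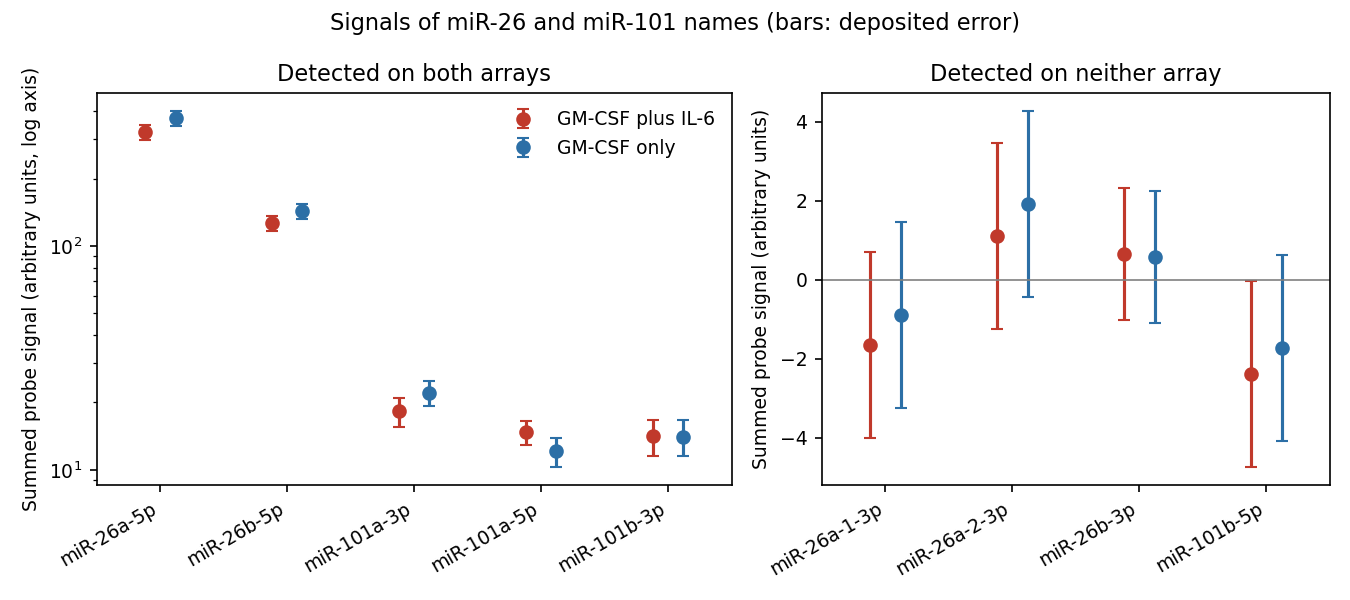
Summed probe signal (vertical axes, arbitrary units) of the 5 detected names on a log axis (left) and of the 4 undetected names on a linear axis (right), for GM-CSF plus IL-6 in red and GM-CSF only in blue. Points are 1 array each and bars are the deposited errors; miR-26a-5p stands at 322 and 372, and the bars of the undetected names reach or cross 0 except for miR-101b-5p with IL-6, at -2.38 ± 2.35.

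The comparison asks how addition of IL-6 altered the members. Arrays were scaled by their 75th percentile over the 292 names detected on both, which adds 0.18 to every log2 ratio of the IL-6 culture over the culture without it. After this step the median of all 292 log2 ratios was 0.12, and between settings it ran from -0.15 to 0.13. A relative log2 ratio, which subtracts that median, is therefore given for each name.

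No detected member reached a 1.5-fold difference. The count was 0 of 5 on the scaled values, where 5.48% of the 292 names passed in either direction, and 0 of 5 on the relative values, where 3.42% passed. At 2-fold it was again 0 of 5 on both, against 1.37% and 1.03% of all names. With 5 members, so low a background gives little room for a count above 0. On the scaled values 2 of 5 members were below 0, against 19.5% of all names. On the relative scale 3 members were below 0 and 2 above it, where 50% of names lie below 0 by construction. The median relative log2 ratio of the 5 was -0.11.

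Both miR-26 members were slightly lower with IL-6 relative to other miRNAs. The relative log2 ratio was -0.15 ± 0.02 (spot SE) for miR-26a-5p, a relative fold of 0.904, and -0.11 ± 0.02 for miR-26b-5p, or 0.925. The 2 ratios differed by -0.03 ± 0.03 (spot SE), with an interval from -0.46 to 0.39 on the deposited errors. Before the median was subtracted the log2 ratios were -0.03 and 0.01, so the direction of miR-26b-5p depended on that step. Over 14 alternative settings the log2 ratio without subtraction was below 0 for miR-26a-5p in 14 and for miR-26b-5p in 10.

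The arms of miR-101a had ratios of opposite sign. The relative log2 ratio was -0.21 ± 0.06 (spot SE) for miR-101a-3p and 0.34 ± 0.07 for miR-101a-5p, relative folds of 0.867 and 1.27. Between the arms the difference was 0.55 ± 0.09 over spots. On the larger deposited errors it was 0.55 ± 0.40, with a 95% interval from -0.23 to 1.33 that includes 0. For miR-101b-3p the relative log2 ratio was 0.07 ± 0.07, about 1 spot error from 0, and its difference from miR-101a-3p was 0.28 ± 0.09 over spots. On the deposited errors that difference had an interval from -0.65 to 1.20, which includes 0.

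Spot error and deposited error give different readings of the same ratios. The distance from 0 exceeded 2 spot errors for 4 of the 5 members, the exception being miR-101b-3p. With the deposited errors, which include a share proportional to signal, the 95% intervals of all 5 relative ratios included 0. These ran from -0.44 to 0.15 for miR-26a-5p, from -0.42 to 0.19 for miR-26b-5p, from -0.76 to 0.35 for miR-101a-3p, from -0.20 to 0.89 for miR-101a-5p and from -0.67 to 0.81 for miR-101b-3p. Neither error covers the variation between cultures. Neither count was made over all detected names, so neither sets the members apart from other miRNAs.

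The members were set among the 292 detected names. Of the other names, 11.3% were at least as far from the median as miR-101a-5p, 24.7% as miR-101a-3p, 41.2% as miR-26a-5p, 52.2% as miR-26b-5p and 67.7% as miR-101b-3p. Counted from the lowest ratio, miR-101a-3p was name 17, miR-26a-5p name 44 and miR-26b-5p name 63. Counted from the highest, miR-101a-5p was name 32. The 146 names below the median level include the whole detected miR-101 family. Among them 21 others had a ratio at least as high as that of miR-101a-5p, and 11 one at least as low as that of miR-101a-3p. Among the 146 brighter names, which include the miR-26 pair, 17 others were at least as low as miR-26a-5p and 28 as miR-26b-5p. Before subtraction of the overall median, the median log2 ratio was 0.10 for the brighter names and 0.16 for the dimmer.

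**Figure D2:**
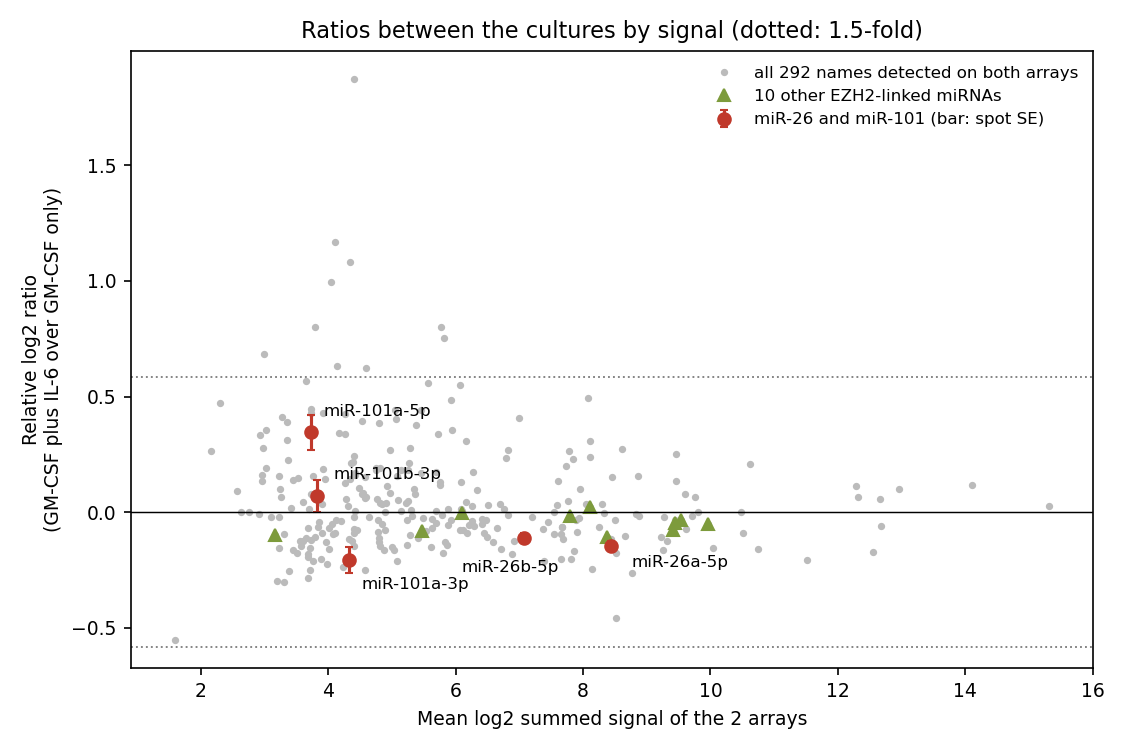
Relative log2 ratio of the IL-6 culture over the culture without it (vertical axis) against the mean log2 summed signal of the arrays (horizontal axis) for the 292 names detected on both (grey), with 10 other EZH2-linked miRNAs (green triangles) and the 5 detected members (red, bars are spot SE). All 5 members lie between the dotted 1.5-fold lines, with miR-101a-5p highest at 0.34 and miR-101a-3p lowest at -0.21.

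The probes of a name were compared on the relative scale. The 2 probes of miR-26a-5p (A_54_P2481 and A_54_P4384) had relative log2 ratios of -0.16 and -0.14. Their spots, from 250 to 323 with IL-6 and from 310 to 371 without for the first, overlapped between arrays at the edges only. The probes of miR-26b-5p gave -0.17 (A_54_P2483) and -0.08 (A_54_P2484), which before subtraction of the overall median were -0.05 and 0.04, of opposite sign. The probes of miR-101a-3p gave -0.24 (A_54_P2268) and -0.18 (A_54_P4365).

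The 4 probes of miR-101a-5p were all higher with IL-6, unequally. Probe A_54_P3279 had a relative log2 ratio of 0.67 ± 0.13 (spot SE). The others gave 0.24 ± 0.20 (A_54_P3280), 0.24 ± 0.15 (A_54_P3281) and 0.29 ± 0.11 (A_54_P3282). On the deposited errors the SE of these probe ratios ran from 0.50 to 0.64. The total of A_54_P3279 was 3.60 with IL-6 and 2.37 without. On the second array 3 of its 10 spots carried outlier flags and were left out of the total. Without IL-6 that total was under 3 times its error of 0.864, so this probe was detected on 1 array only. For miR-101b-3p, probe A_54_P2593 had 0 of 20 spots clear of background with IL-6 or without, with totals of 3.35 and 3.31, and probe A_54_P2594 gave 10.8 on each.

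**Figure D3:**
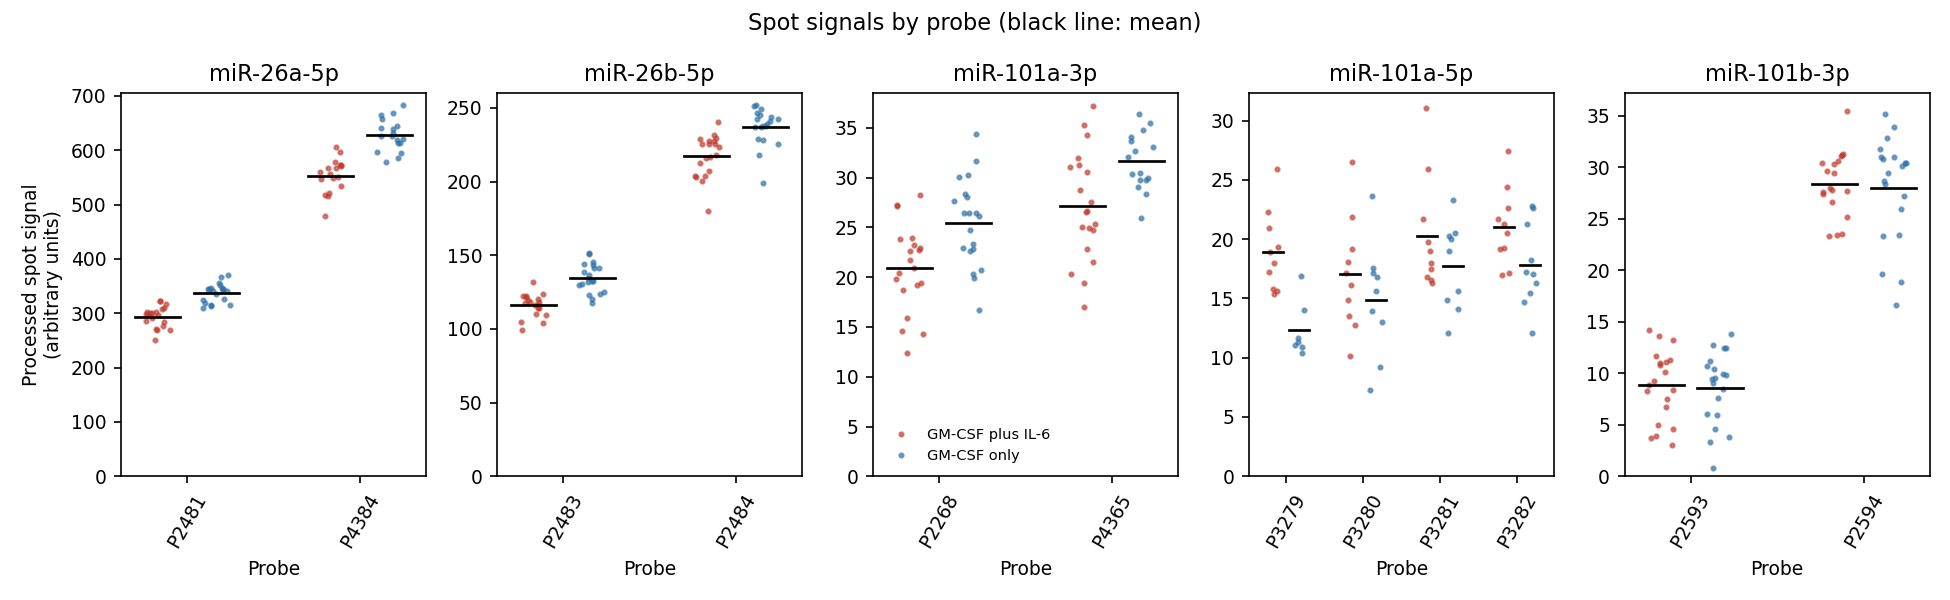
Processed signal of each spot without outlier flags (vertical axes, arbitrary units, each from 0) by probe (horizontal axes, P number after A_54_) for the 5 detected names, with GM-CSF plus IL-6 in red, GM-CSF only in blue and the mean as a black line. Spots of every probe overlap between the arrays, and the widest gap between means relative to level is at probe P3279 of miR-101a-5p, with totals of 3.60 and 2.37.

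The deposited value table gave miR-101a-5p a larger ratio. In the authors' deposited table its log2 values were -2.40 with IL-6 and -3.00 without, a difference of 0.59. After the same scaling and subtraction the relative log2 ratio was 0.66, past 1.5-fold. Those values equal the log2 sum of the detected probes minus a constant, so the table adds 4 probes with IL-6 and 3 without. Restricting the scanner values to detected probes gave the same 0.66. The authors' deposited table held -0.21 for the difference of miR-26a-5p, -0.18 for miR-26b-5p, -0.27 for miR-101a-3p and 0.002 for miR-101b-3p.

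**Figure D4:**
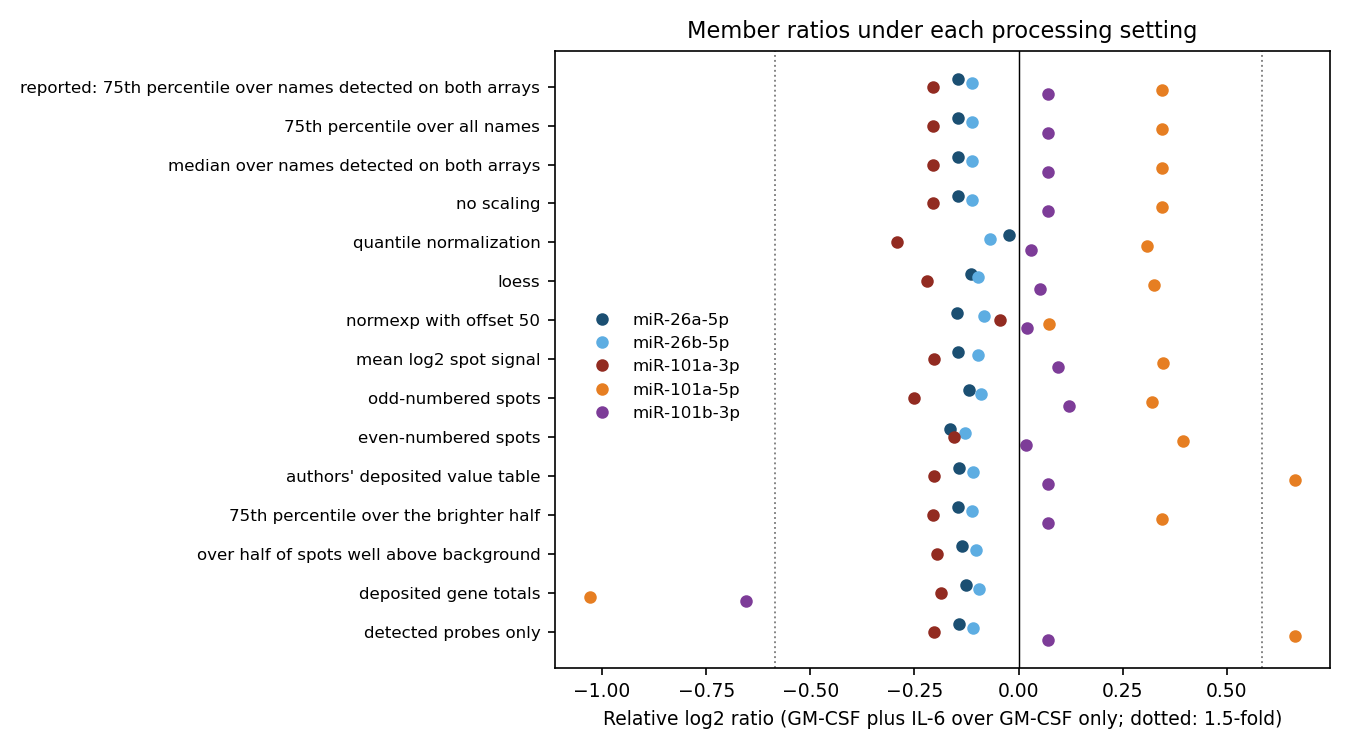
Relative log2 ratio of the IL-6 culture over the culture without it (horizontal axis, dotted lines at 1.5-fold) of the 5 detected members under each processing setting (vertical axis). The miR-26 pair and miR-101a-3p lie below 0 throughout, whereas miR-101a-5p and miR-101b-3p lie above 0 except with the deposited gene totals, at -1.03 and -0.66.

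Other miRNAs that have been reported to target EZH2, mostly in human cells, differed little. Of 18 listed, 17 were on the array, 10 were detected in both cultures and 7 in neither (miR-124-3p, miR-137-3p, miR-138-5p, miR-214-3p, miR-217-5p, miR-144-3p and miR-32-5p). On the relative scale 0 of the 10 reached 1.5-fold, against 3.42% of all names, a share near the background. Their relative log2 ratios ran from -0.11 for miR-25-3p (315 with IL-6 and 354 without) to 0.02 for let-7b-5p (271 and 279), and 9 of 10 were below 0, where 50% of all names are. Their median was -0.05, against -0.11 for the miR-26 and miR-101 members. Before subtraction of the overall median, all 10 were above 0, where only 19.5% of all names were below 0. The direction of the 10 thus depends on that step.

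Of the 10 detected names on the list, 8 were let-7 names or their relative miR-98-5p. These miRNAs, which hold back growth genes in differentiated cells, had relative log2 ratios as follows: let-7a-5p (-0.04), let-7b-5p (0.02), let-7c-5p (-0.02), let-7e-5p (-0.10), let-7f-5p (-0.05), let-7g-5p (-0.08), let-7i-5p (-0.05) and miR-98-5p (-0.08). The remaining name, miR-30d-5p, stood at -0.002.

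Of 10 miRNAs linked to Polycomb in other ways, as targets of its repression or as regulators of its subunits, 6 were detected on both arrays. Relative log2 ratios were -0.16 for miR-29a-3p, 0.03 for miR-29b-3p, -0.17 for miR-29c-3p, -0.08 for miR-181a-5p, 0.05 for miR-181b-5p and -0.21 for miR-200c-3p. On that scale 0 of 6 reached 1.5-fold, against 3.42% of all names, and 4 of 6 were below 0, against 50%, so both shares were near the background. Their median was -0.12. Before subtraction of the overall median 3 of 6 were above 0, where 19.5% of all names were below 0. The median log2 ratio of the 6 on that scale was 0.002. The name miR-200b-3p was detected without IL-6 only, at 7.94 ± 2.45 against 5.62 ± 2.41. Both miR-31-5p and miR-203-3p, with miR-200a-3p, were detected on neither array.

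The names nearest in signal and ratio, by Euclidean distance of scaled log2 signals over the 2 arrays, are given as a description. For miR-26a-5p they were miR-211-3p (distance 0.02), miR-25-3p (0.08) and miR-709 (0.13). For miR-26b-5p they were miR-1897-5p (0.05), miR-140-3p (0.07) and miR-2861 (0.19). For miR-101a-3p they were miR-365-3p (0.06), miR-370-3p (0.08) and miR-149-5p (0.11), and for miR-101b-3p miR-674-3p, miR-295-5p and miR-181d-5p (0.10 each). No family partner was among them, since the measure is led by brightness.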

How the data were processed

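RNA was isolated with a mirVana kit and 0.2 ug was labelled with Cy3, per the labels' protocols. The labels name a cRNA amplification kit at this step, and no source used here says whether it served the miRNA arrays. The authors' scanner output, per the file headers, comes from Agilent Feature Extraction 10.7.1.1 and holds spatially detrended intensity values with no scaling between arrays. The authors' deposited table holds log2 values; they equalled, within 0.2%, the log2 sum of detected probes minus 6.28 on each array for all 308 and 301 detected names, and the origin of the constants is unknown. The column medians, at the floor of undetected names, were -9.60 and -9.60. Scale and direction are known from that match.

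A name's level summed its probes' deposited total signals. Levels were divided by the array's 75th percentile (160.1 and 181.8) over names with both cultures detected. Log2 ratios put the IL-6 culture over the other. Spot errors came from spots without outlier flags; deposited errors of probes were combined as independent. Replicate spots had a median coefficient of variation of 8.18% with IL-6 and 7.42% without, per the file headers. One slide and 1 scan held both arrays, which therefore do not separate the cultures.

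No test was run, with 1 array per group; fixed sizes of 1.5-fold and 2-fold took its place. The members and lists were chosen with earlier results of these data known. The text names all members, array names sharing bases 2 to 8 or 2 to 7 with a detected member, the detected names of both lists and the 3 nearest names of each of 4 members. Listed miR-506-3p, and the markers miR-486-5p and miR-1-3p, did not match an array name and are not analysed here. The listed name miR-451a did not match either, and the array's miR-451 is given above. Alternatives were other scalings, quantile normalization, loess (span 0.7), normexp (offset 50), spot means on the log2 scale (floor 1), odd or even spots, single probes, the deposited table and stricter detection. The deposited gene totals and detected probes alone were added after seeing the data. Functions were tested on simulated data. Python 3.11.15, numpy 2.4.6, pandas 2.3.3, statsmodels 0.14.6, matplotlib 3.10.9, R 4.3.3 and limma 3.58.1 were used.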

Additional observations from a re-analysis of the deposited data

How the results depend on the processing

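All settings rework the same arrays, so counts of settings are not independent checks. The deposited table and detected probes alone hold nearly the same values. Uniform scalings cannot move a relative ratio. Under the other settings apart from the deposited gene totals, miR-26a-5p stayed below 0 in 9 of 9 (-0.16 to -0.02), miR-26b-5p in 9 of 9 (-0.13 to -0.07) and miR-101a-3p in 9 of 9 (-0.29 to -0.04), while miR-101a-5p stayed above 0 in 8 of 8 (0.07 to 0.66) and miR-101b-3p in 8 of 8 (0.02 to 0.12). Quantile normalization gave -0.023 for miR-26a-5p and -0.070 for miR-26b-5p. Normexp, which by construction draws dim names toward 0, gave -0.044 for miR-101a-3p and 0.072 for miR-101a-5p. For miR-101a-5p the deposited table and detected probes alone gave 0.66, which put 1 member past 1.5-fold, and probe A_54_P3279 alone gave 0.67. Probe A_54_P2483 of miR-26b-5p alone gave -0.17. With the deposited gene totals, miR-101a-5p reversed to -1.03 and miR-101b-3p to -0.66, so that 2 members passed 1.5-fold and 1 passed 2-fold.

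The median log2 ratio of the members before subtraction, 0.01, became -0.26 with the 75th percentile over all names, -0.20 with the median, -0.18 with no scaling, -0.11 with loess, -0.22 with stricter detection and -0.20 with the gene totals. Stricter detection kept 3 members and gives no value for miR-101a-5p or miR-101b-3p. Of 5 members, 3 held the same rank by signal on both arrays, and 5 did when probes were averaged instead of summed. A probe's total grows with its number of spots. The average therefore lowers miR-101a-5p, with 10 spots per probe, against miR-101b-3p, with 20, and does not settle their order. The relative list medians stayed below 0 in 10 of the 10 settings that could move them, from -0.06 to -0.02 for the EZH2 list and from -0.18 to -0.03 for the Polycomb list. No paired analysis was possible because each group has 1 array, which leaves a single pair and no spread between pairs.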

Other observations

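The scanner files hold a gene total beside the probe totals, and for 2 members it was not the sum of their probes. Without IL-6 the gene total of miR-101a-5p was 31.7, whereas its 3 detected probes summed to 9.72. The excess of 22.0 equalled, within 0.2%, the gene total of miR-101a-3p, the detected name before it. With IL-6 all 4 probes were detected and the gene total, 14.7, was their sum. For miR-101b-3p the gene totals were 25.5 with IL-6 and 42.5 without, against 10.8 from its 1 detected probe on each array, and both excesses equalled the gene total of miR-101a-5p. The gene totals of miR-26a-5p, miR-26b-5p and miR-101a-3p equalled their probe sums. By the gene totals miR-101a-5p was more than 2-fold lower with IL-6, where each of its 4 probes was higher.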
